A study of Mus musculus with 16 samples.

Results

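The genes described here are 10 that make or respond to blood vessel growth signals, or that mark the endothelial cells lining blood vessels: Vegfa, Kdr, Flt1, Angpt1, Angpt2, Tek, Angptl2, Pecam1, Cdh5 and Emcn. They were taken by name. Every probe of the array that carries one of these names was collected, which gave 21 probes, and 16 of them passed a filter on dim or incompletely measured probes. All 10 genes kept at least 1 probe, so they were 10 of the 28250 genes or unnamed transcripts that could be tested. RNA came from subchondral bone, the bone beneath the joint cartilage, cut by laser from 10 µm sections of the medial tibia. The mice were male C57BL6 wild type animals aged 10 to 12 weeks at surgery. They had destabilization of the medial meniscus (DMM), in which the ligament that holds the medial meniscus is cut and osteoarthritis follows, or a sham operation in which the ligament was only exposed. Both knees of a mouse were operated on alike, 1 joint of each mouse was used for RNA, and tissue was taken 1 or 6 weeks later. This made 4 groups (sham and DMM at 1 week, sham and DMM at 6 weeks) of 4 mice, with 1 Agilent array per mouse. There was no unoperated group, so both sham and DMM values follow an opened joint.

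Vegfa is the secreted growth factor that starts most vessel growth, and in bone it couples vessels to bone formation. Kdr is the receptor through which it drives endothelial cells to divide and migrate, while Flt1 binds it tightly and, in its soluble form, holds it back. A second axis runs through the receptor kinase Tek (Tie2): Angpt1 activates it and keeps vessels stable, and Angpt2 usually opposes this where vessels are remodelled. Angptl2 is a related secreted protein that does not bind Tek and is known for roles in tissue inflammation. Pecam1 and Cdh5 (VE-cadherin) hold endothelial cells together, and Emcn (endomucin) coats the capillaries and sinusoids that are abundant in bone and marrow.

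Vegfa makes splice forms of different length, and its probes read different parts of them. The sequence below is a deposited array probe on the minus strand of mouse assembly mm9, shown because it gave another value than the probe that stands for Vegfa in the comparison of times. It lies in the heparin-binding stretch that the longer forms carry and the short forms skip (chr17:46159226-46159282), and its capitals mark 6 lysine or arginine codons in a row.
Vegfa, long forms: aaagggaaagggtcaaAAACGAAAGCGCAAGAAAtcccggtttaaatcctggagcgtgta

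Values are log2 signal minus the 75th percentile of the array, so 0 is the signal that 75% of the probes on that array do not exceed. They serve to compare arrays for 1 probe and not 1 gene with another. The unscaled 75th percentile of signal ranged from 329 to 873 between arrays. Array sham_6wk replicate 2 was the dimmest (next lowest 471) and lay apart from the others on the first principal component (176.5, others -69.6 to 71.7). The arrays sat on 2 slides, each scanned in 1 run, with 2 arrays of each group on each slide. Slide 1 held replicates 1 and 2 of every group and slide 2 held replicates 3 and 4. The tissue held vessels, bone and marrow: all 10 genes of an endothelial marker list (6 of them members), all 10 osteoblast markers and all 10 erythroid markers passed the filter, the erythroid and osteoblast markers on 16 of 16 arrays. In such bulk tissue, fewer cells of a type and less RNA per cell cannot be told apart.

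Destabilization was first compared with sham surgery at each time. Of the 10 genes, 9 had a higher mean after DMM at 1 week and 5 at 6 weeks, with median log2 differences of 0.11 and 0.0048. Over all 28250 genes the medians were 0.0032 and -0.023. None of the 10 passed an adjusted p of 0.05 at either time in limma, and neither did any other gene, so that the share of all genes called was 0% at 1 week and 0% at 6 weeks. Unadjusted p-values lay below 0.05 for 273 genes at 1 week, none of them among the 10, and for 220 genes at 6 weeks. Of the 10, 1 was among the latter (Angptl2, whose probe was mostly below detection). That probe passed the filter only through the DMM arrays, so its p is not read as a test. For 0 of the 10 were the DMM and sham arrays free of overlap, against 1.1% of all genes at 1 week and 0.499% at 6 weeks. The count at 1 week rests on 1 array: without DMM_1wk replicate 1, 5 of the 10 were higher and the median was -0.0059. At 6 weeks the count moved with the scaling, from 4 higher in the authors' value table to 7 when arrays were scaled on their median, and fell to 3 without sham_6wk replicate 2.

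**Figure D1:**
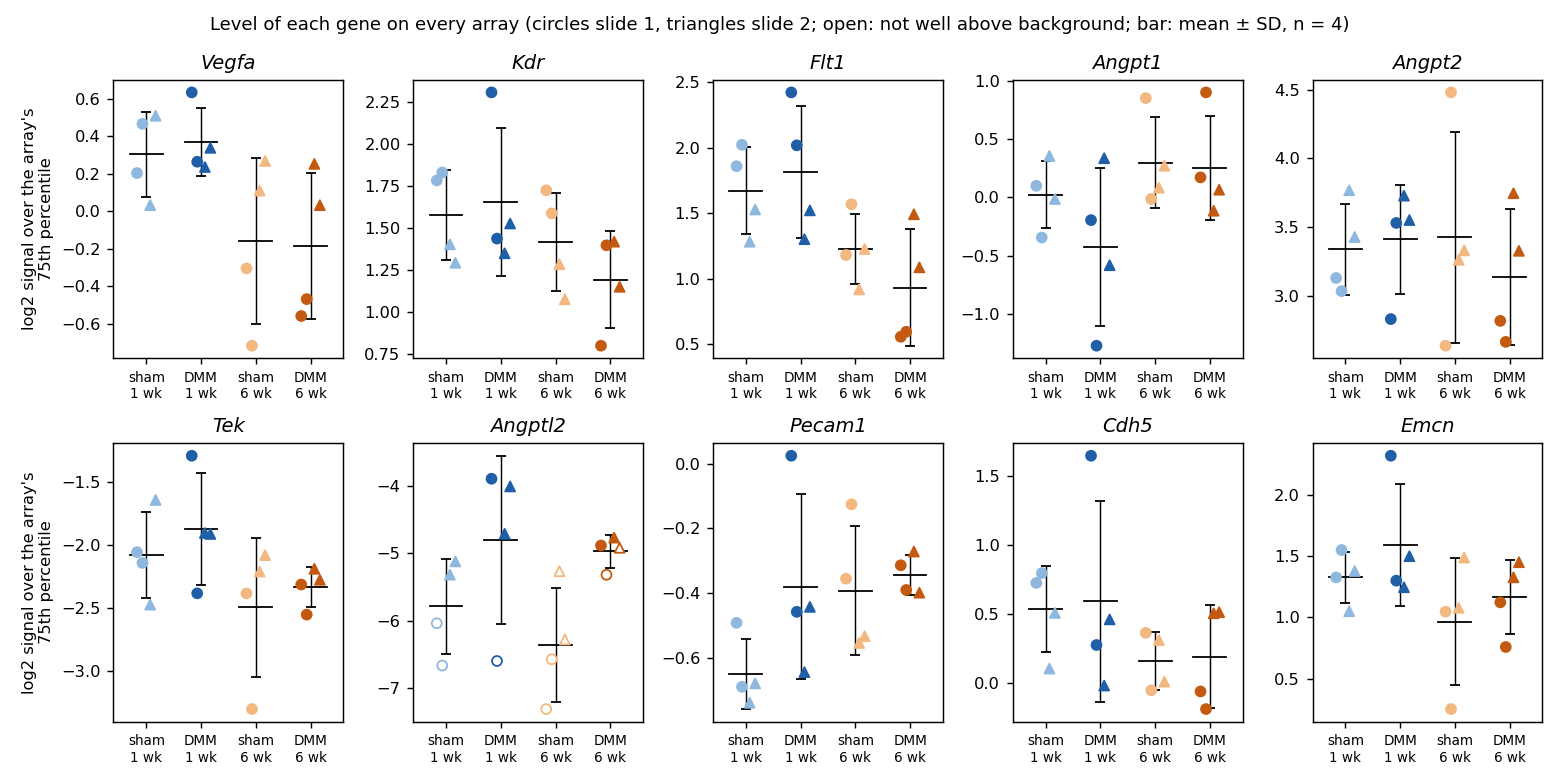
Level of each of the 10 genes on every array, as log2 signal over the array's 75th percentile (each panel has its own scale), for the 4 groups; circles are arrays of slide 1, triangles of slide 2, open symbols are spots not well above background, and bars give the mean ± SD of 4 arrays. The DMM and sham symbols overlap in every panel, and DMM_1wk replicate 1 is the highest of the 16 arrays for 8 of the 10 genes, all but Angpt1 and Angpt2.

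Vegfa showed little difference between the surgeries. Its level at 1 week was 0.20, 0.47, 0.03 and 0.51 on the sham arrays and 0.64, 0.26, 0.24 and 0.34 on the DMM arrays. At 6 weeks it was -0.31, -0.72, 0.11 and 0.27 after sham surgery and -0.56, -0.47, 0.25 and 0.03 after DMM. The groups overlapped at both times. The DMM minus sham difference was 0.07 ± 0.24 (SE, 4 arrays against 4) at 1 week, with a 95% confidence interval of -0.44 to 0.57. At 6 weeks it was -0.02 ± 0.24, with an interval of -0.53 to 0.48. The intervals therefore leave room for differences of about that size in either direction.

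Both VEGF receptors had slightly higher means after DMM at 1 week and lower means at 6 weeks. Kdr read 1.78, 1.83, 1.40 and 1.29 on sham arrays at 1 week and 2.31, 1.44, 1.35 and 1.53 on DMM arrays. Only the first DMM array stood above all 4 sham arrays. At 6 weeks it read 1.72, 1.59, 1.28 and 1.07 after sham surgery and 0.80, 1.40, 1.42 and 1.15 after DMM. Its DMM minus sham difference was 0.08 ± 0.24 at 1 week and -0.23 ± 0.24 at 6 weeks (limma adjusted p = 1.00 at both times), and without DMM_1wk replicate 1 the first became -0.14. Flt1 read 1.86, 2.02, 1.28 and 1.53 on sham arrays at 1 week and 2.42, 2.02, 1.30 and 1.52 on DMM arrays. At 6 weeks Flt1 read 1.18, 1.57, 0.92 and 1.23 after sham surgery and 0.56, 0.60, 1.49 and 1.09 after DMM. Low values on both DMM arrays of slide 1 set this last mean. The Flt1 difference was 0.14 ± 0.28 at 1 week, or -0.06 without DMM_1wk replicate 1. At 6 weeks it was -0.29 ± 0.28, and within the slides the latter was -0.80 and 0.22. For Kdr the within-slide differences at 6 weeks were -0.56 and 0.10, so for both receptors the sign of the 6-week difference was not shared by the slides. The change of the DMM effect from 1 to 6 weeks was -0.30 ± 0.34 for Kdr and -0.43 ± 0.39 for Flt1 and was called for neither (limma adjusted p = 1.00 each, in a comparison in which 0% of all genes were called and 193 had an unadjusted p below 0.05).

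In the angiopoietin axis, Angpt1 had the lower mean after DMM at 1 week. It read 0.10, -0.35, 0.35 and -0.02 on the sham arrays and -0.20, -1.27, 0.33 and -0.58 on the DMM arrays, a difference of -0.45 ± 0.32 (95% confidence interval -1.13 to 0.23). DMM_1wk replicate 2 was the lowest of the 16 arrays and carried much of this, since the difference was -0.17 without it. Angpt1 is also made by megakaryocytes, whose markers were low on the same array, as given further on. Those markers were nearly as low on DMM_1wk replicate 1, where Angpt1 read -0.20, within the range of the sham arrays. A link between the 2 was not tested. At 6 weeks Angpt1 read 0.85, -0.02, 0.08 and 0.27 after sham surgery and 0.17, 0.90, -0.12 and 0.06 after DMM, with a difference of -0.04 ± 0.32. Angpt2 read between 3.03 and 3.77 on sham arrays at 1 week and between 2.83 and 3.73 on DMM arrays (difference 0.07 ± 0.35). At 6 weeks it read 2.64, 4.48, 3.26 and 3.33 after sham surgery and 2.82, 2.66, 3.75 and 3.33 after DMM (difference -0.29 ± 0.35). Its highest value came from the dim array sham_6wk replicate 2, and without that array the difference was 0.06. A further Angpt2 probe, 8.83 kb away, gave -0.50 at 1 week and 0.06 at 6 weeks, so the Angpt2 probes did not share a direction. Tek, the receptor, read -2.06, -2.14, -2.47 and -1.64 on sham arrays and -1.29, -2.38, -1.90 and -1.91 on DMM arrays at 1 week. At 6 weeks Tek read -2.38, -3.30, -2.21 and -2.08 after sham surgery and -2.31, -2.55, -2.19 and -2.28 after DMM. Its differences were 0.21 ± 0.28 and 0.16 ± 0.28, and they became 0.01 without DMM_1wk replicate 1 and -0.11 without sham_6wk replicate 2.

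Angptl2 gave the largest differences between DMM and sham arrays among the 10 genes, at the edge of what the arrays could detect. The probe that passed the filter was well above background on 2 of 4 sham and 3 of 4 DMM arrays at 1 week, and on 0 of 4 sham and 2 of 4 DMM arrays at 6 weeks. At 1 week it read -6.04, -6.67, -5.32 and -5.12 after sham surgery and -3.89, -6.60, -4.71 and -4.00 after DMM. At 6 weeks it read -7.32, -6.58, -5.26 and -6.28 after sham surgery and -4.88, -5.32, -4.77 and -4.92 after DMM. At each time all DMM arrays but one lay above all sham arrays, and that one lay within the sham range. The 1-week difference was 0.99 ± 0.55 with a 95% confidence interval of -0.18 to 2.15. It was 1.59 without DMM_1wk replicate 2, 0.68 without DMM_1wk replicate 1, and 0.29 with normexp background correction. This difference too rests in part on spots not well above background, and its interval is not read as a test. Since no sham array and only 2 of 4 DMM arrays were well above background at 6 weeks, no fold is given for that time. Measured means were -4.97 after DMM and -6.36 after sham surgery. The 1.39 ± 0.55 that the fit gave between them rests on sham spots not well above background, so its size is not read as a measured difference. Averaged over both times the difference was 1.19 ± 0.39, with 7 of 8 DMM arrays above the sham mean, and this average holds the same sham spots. The probe passed the filter only through the DMM arrays, 5 of the 7 on which it was measurable, so its selection favoured a higher level after DMM and no p is given for it. Over all genes 0% were called in that averaged comparison by limma, and 265 had an unadjusted p below 0.05. With normexp background correction the average shrank to 0.23, and in the authors' value table it was 0.59. The other 2 Angptl2 probes did not pass the filter.

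Among the endothelial surface genes, Pecam1 was measured most tightly. Its probe lies in coding sequence at chr11:106540864-106540923 (mm9, minus strand) and is shown because Pecam1 is an endothelial marker that correlated little with Emcn and Tek over all 16 arrays.
Pecam1: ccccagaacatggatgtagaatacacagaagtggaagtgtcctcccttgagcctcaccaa

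Pecam1 read -0.49, -0.69, -0.74 and -0.68 on sham arrays at 1 week and 0.03, -0.46, -0.65 and -0.44 on DMM arrays. All 4 DMM arrays lay above the sham mean, though not above every sham array. The difference was 0.27 ± 0.16 (95% confidence interval -0.08 to 0.62, limma adjusted p = 1.00), and 0.14 without DMM_1wk replicate 1. At 6 weeks Pecam1 read -0.36, -0.13, -0.55 and -0.53 after sham surgery and -0.31, -0.39, -0.27 and -0.40 after DMM, a difference of 0.05 ± 0.16. Cdh5 read 0.72, 0.80, 0.10 and 0.51 on sham arrays and 1.65, 0.27, -0.02 and 0.46 on DMM arrays at 1 week. The DMM group thus held the highest and the lowest value, and the difference of 0.06 ± 0.31 became -0.29 without its highest array. At 6 weeks Cdh5 differed by 0.03 ± 0.31. Emcn read 1.33, 1.55, 1.05 and 1.38 after sham surgery and 2.32, 1.30, 1.25 and 1.50 after DMM at 1 week. Its difference was 0.26 ± 0.28, and 0.02 without DMM_1wk replicate 1. At 6 weeks Emcn read 1.05, 0.25, 1.08 and 1.49 after sham surgery and 1.12, 0.76, 1.33 and 1.45 after DMM (difference 0.20 ± 0.28). Without the dim sham array that difference was -0.04.

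**Figure D2:**
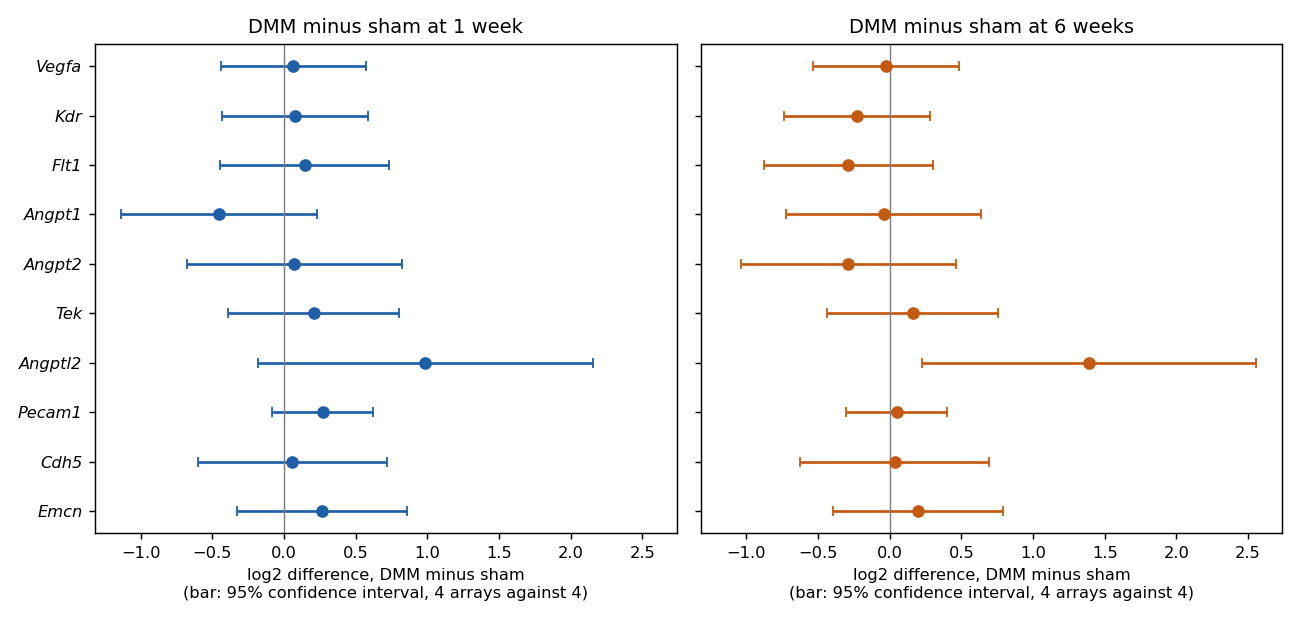
DMM minus sham log2 difference of each gene at 1 week (left) and 6 weeks (right), with bars for the 95% confidence interval from the fit over 16 arrays. At 1 week the intervals of all 10 genes include 0, and at 6 weeks those of 9 do. The Angptl2 intervals at 1 week and at 6 weeks (the latter 0.22 to 2.55) are not read as tests. Its probe passed the filter only through the DMM arrays, and its sham arrays at 6 weeks were not well above background.

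Other genes of the pathway were compared in the same way. Of 5 VEGF ligands, 3 had higher means after DMM at 1 week and 2 at 6 weeks. Vegfb differed by -0.09 ± 0.20 and -0.05 ± 0.20, the lymphatic ligand Vegfc by 0.17 ± 0.35 and 0.08 ± 0.35, and Pgf by 0.05 ± 0.35 and -0.11 ± 0.35. Vegfd, another lymphatic ligand, differed by -0.15 ± 0.62 at 1 week and 1.13 ± 0.62 at 6 weeks, the latter made of 2.34 on slide 1 and -0.09 on slide 2. Of 5 VEGF receptors and co-receptors, 3 were higher at 1 week and 0 at 6 weeks: the lymphatic receptor Flt4 differed by -0.14 ± 0.29 and -0.17 ± 0.29, Nrp1 by 0.04 ± 0.17 and -0.17 ± 0.17, and Nrp2 by -0.10 ± 0.55 and -0.30 ± 0.55. The dim array decided the sign of 4 of these 6-week values, since without it Vegfc gave -0.21, Pgf 0.21, Flt4 0.0084 and Nrp2 0.31. Tie1, the partner receptor of Tek, differed by 0.12 ± 0.27 and -0.07 ± 0.27, and Ptprb, the phosphatase that switches Tek off, by 0.20 ± 0.24 and -0.07 ± 0.24. Angptl4, an inhibitor of lipoprotein lipase, differed by 0.28 ± 0.17 and -0.20 ± 0.17. No gene of these lists passed the adjusted threshold in either comparison.

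Of 20 endothelial junction and surface genes, 16 had higher means after DMM at 1 week (median 0.16) and 11 at 6 weeks (median 0.03), and 0 were called at either time. The median at 1 week was 0.0058 without DMM_1wk replicate 1. In this list the smallest p-values at 1 week belonged to Vwf (-0.46 ± 0.28), the clotting factor carrier that platelets also hold, and to Ecscr (0.47 ± 0.29), an endothelial surface protein. The next lists held no call either. Gata2, a transcription factor of endothelial and blood progenitor cells, differed by -0.54 ± 0.26 at 1 week and -0.53 ± 0.26 at 6 weeks, where its DMM and sham arrays did not overlap, with unadjusted p of 0.0529 and 0.0549 in limma and adjusted p of 1.00. Such a lack of overlap at 6 weeks was found for 0.499% of all genes. Among 9 measured angiogenesis inhibitors, 5 were higher at 1 week and 2 at 6 weeks. Serpinf1 (PEDF), which bone-forming cells also secrete, differed by 1.12 ± 0.48 at 1 week (limma unadjusted p = 0.0361, adjusted p = 1.00), and Thbs2 by 0.68 ± 0.37. Of 8 oxygen sensing regulators that act upstream of Vegfa, 3 were higher at 1 week and 2 at 6 weeks, with medians of -0.02 and -0.18.

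The times after surgery were then compared, averaged over sham and DMM so that 8 arrays stood against 8. Of the 10 genes, 8 had lower means at 6 weeks (median -0.38, against 0.039 over all genes), and 2 had higher means. The fit called 247 of 28250 genes in this comparison, or 0.874%, of which 181 were higher and 66 lower at 6 weeks. None of the 10 was among them. Unadjusted p-values lay below 0.05 for 3 of the 10 (Vegfa, Flt1 and Tek) and for 4455 genes in all, which is 15.8%. Groups free of overlap were found for 0 of the 10 and for 0.658% of all genes. The median of the 10 was -0.22 without DMM_1wk replicate 1.

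Flt1 showed the largest difference of the 10. Its mean was 1.74 at 1 week and 1.08 at 6 weeks, and all 8 arrays at 6 weeks lay below the 1-week mean. The difference was -0.67 ± 0.20 (95% confidence interval -1.08 to -0.25, unadjusted p = 0.00393, adjusted p = 0.103 in limma). It passed the threshold in 1 of 26 alternative analyses, the one without sham_6wk replicate 2 (-0.72, limma adjusted p = 0.0487). Vegfa had a mean of 0.34 at 1 week and -0.17 at 6 weeks, again with all 8 later arrays below the earlier mean. Its difference was -0.51 ± 0.17 (interval -0.87 to -0.15, unadjusted p = 0.00857, adjusted p = 0.140 in limma). Tek went from -1.97 to -2.41, a difference of -0.44 ± 0.20 with 8 of 8 later arrays below the earlier mean (unadjusted p = 0.0426, adjusted p = 0.294 in limma).

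The other members lay closer to their error. Kdr differed by -0.31 ± 0.17, Cdh5 by -0.39 ± 0.22 and Emcn by -0.39 ± 0.20. Angpt2 differed by -0.09 ± 0.25, and Angptl2, which was not above background on 9 of the 16 arrays, by -0.37 ± 0.39. The 2 genes with higher means at 6 weeks were Angpt1 (0.48 ± 0.23, interval -0.0037 to 0.96, with 8 of 8 later arrays above the earlier mean) and Pecam1 (0.15 ± 0.12). The activating Tek ligand and Tek itself thus differed in opposite directions, though neither passed the adjusted threshold.

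These differences were not equally large on the slides. Vegfa differed by -0.91 between the times on slide 1 and by -0.11 on slide 2, and Flt1 by -1.10 and -0.23. For Tek the values were -0.67 and -0.21, for Kdr -0.46 and -0.16, and for Angpt1 0.90 and 0.05. Cdh5 (-0.85 and 0.07) and Emcn (-0.83 and 0.04) were lower at 6 weeks on slide 1 alone. Over the 10 genes the median was -0.57 on slide 1, with 7 lower, and -0.14 on slide 2, with 6 lower. Each of these values compares 4 arrays with 4, carries no test of its own, and comes from different mice, so slide and mouse cannot be told apart.

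**Figure D3:**
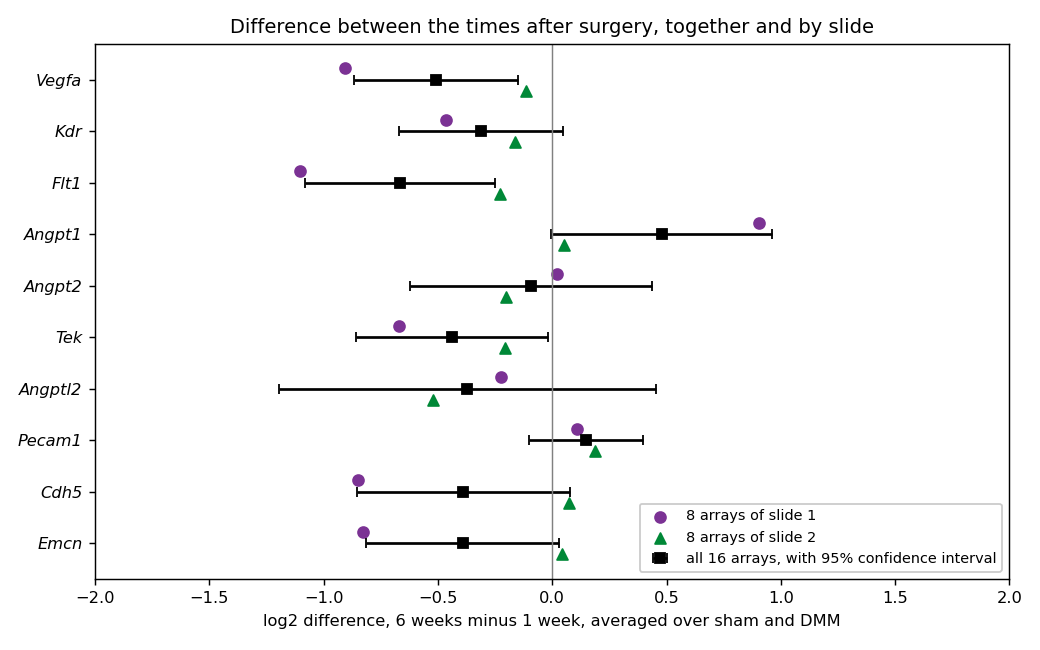
Log2 difference between 6 weeks and 1 week for each gene, averaged over sham and DMM; squares with 95% confidence intervals use 16 arrays, circles the 8 arrays of slide 1 and triangles the 8 of slide 2. The circles of Vegfa, Flt1, Cdh5 and Emcn lie between -1.10 and -0.83, while the triangles of the same genes lie between -0.23 and 0.07.

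Probes of 1 gene allowed a check within the arrays. The Vegfa probe that stands for the gene differed by -0.51 between the times and a probe 1.13 kb from it by -0.55. The probe printed above, with the run of basic codons, differed by 0.02, made of -0.38 on slide 1 and 0.42 on slide 2. It was well above background on 16 of 16 arrays. The difference between probes was not tested. The 3 Flt1 probes that passed the filter differed by -0.67, -0.80 and -0.64, although the other two lie 75.1 and 76.9 kb from the first, nearer the start of the gene. Kdr kept 1 of 3 probes, as the others were above background on 1 array each. The fourth Flt1 probe was above background on 8 of 16 arrays and was left out because its spot was marked as an outlier on 1 array.

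Did the time difference depend on the surgery? Flt1 differed by -0.45 ± 0.28 after sham surgery and by -0.88 ± 0.28 after DMM. Vegfa differed by -0.46 ± 0.24 and -0.55 ± 0.24. The comparison within each surgery called 0% of all genes after sham surgery and 0% after DMM, with 2020 and 2741 genes below an unadjusted p of 0.05. The difference between the surgeries is the change of the DMM effect given above for Kdr and Flt1, and for Vegfa it was -0.09 ± 0.34.

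Partners of Tek and the oxygen sensor were compared between the times as well. Tie1 differed by -0.67 ± 0.19 between 6 and 1 weeks (limma adjusted p = 0.0907) and Ptprb by -0.52 ± 0.17 (limma adjusted p = 0.142). Of the 6 genes of the angiopoietin and Tie list, 4 were lower at 6 weeks and 0 were called. Hif1a, the oxygen-regulated factor that induces Vegfa, differed by -0.51 ± 0.12 and its 8 later arrays all lay below its 8 earlier ones, yet its limma adjusted p was 0.0595. Of the 8 oxygen sensing regulators 7 were lower, with a median of -0.20. The list joins genes of differing roles, namely Hif1a, Epas1 and Arnt with Vhl, Egln1, Egln2, Egln3 and Hif1an. Its median therefore gives no direction for the induction of Vegfa. Tal1 was the 1 gene of all 10 pathway lists that passed the threshold. It rose by 0.93 ± 0.20 (limma adjusted p = 0.0472), from a mean of 3.04 at 1 week to 3.97 at 6 weeks, with no overlap between the times. Over all genes 0.874% were called in this comparison, and 0.658% had no overlap. Tal1 is a transcription factor of endothelial cells and equally of red cell and megakaryocyte precursors, whose own markers were also higher at 6 weeks. Its call held in 11 of 26 alternatives, with limma adjusted p between 0.0141 and 0.117.

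Genes of endothelial Notch and ephrin signalling lay lower at 6 weeks, 5 of 7 measured with a median of -0.54, and none was called. Jag1, a Notch ligand, differed by -0.66 ± 0.21 and Efnb2, the arterial ephrin, by -0.82 ± 0.30 (limma adjusted p = 0.121 and 0.187). On slide 2 alone the list's median was -0.09. Of the 20 junction and surface genes 14 were lower (median -0.19), while Vwf was higher by 0.60 ± 0.20 (limma adjusted p = 0.144), and on slide 2 the median was 0.09. Among VEGF ligands, Vegfd differed by 1.20 ± 0.44, Vegfb by 0.03 ± 0.14, Vegfc by -0.24 ± 0.25 and Pgf by -0.42 ± 0.25. Among receptors, Nrp2 differed by 0.89 ± 0.39, Nrp1 by -0.16 ± 0.12 and Flt4 by -0.39 ± 0.21. Angptl4 differed by 0.25 ± 0.12. Of the 9 angiogenesis inhibitors 5 were higher, and Col18a1, which carries endostatin, differed by -1.30 ± 0.42 with nearly all of it on slide 1 (-2.48 against -0.12). None of these passed the adjusted threshold.

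Markers of other cells also differed between the groups and between the times, in either direction. At 1 week 13 of 14 megakaryocyte and platelet markers had lower means after DMM (median -0.58). The mean level of that list ranged from 1.59 to 2.38 on sham and from 1.03 to 2.38 on DMM arrays, and DMM_1wk replicates 1 and 2 lay 0.95 and 1.05 below the list's mean over all arrays. Adipocyte markers were higher for 6 of 7 (median 0.76, ranges -0.22 to 0.85 on sham and 0.71 to 2.55 on DMM arrays). At 6 weeks the adipocyte markers were lower after DMM for 6 of 7 (median -0.75) and the chondrocyte markers for 10 of 12 (-0.70), while 9 of 10 erythroid markers were higher (0.63). The chondrocyte and erythroid medians had opposite signs on slide 2 (0.56 and -0.08). On DMM_1wk replicate 1 the endothelial markers lay 0.75 above their mean over all arrays, together with osteoblast (0.81), osteoclast (0.91), adipocyte (1.26) and synovial (1.05) markers. Between the times, all 10 erythroid markers (median 1.18), 13 of 14 platelet markers (0.79) and 9 of 12 chondrocyte markers (1.00) were higher at 6 weeks, and 9 of 10 osteoclast markers were lower (-0.63). Osteoblast markers were also lower at 6 weeks for 8 of 10 (median -0.48) and synovial and fibrous markers for 5 of 7 (-0.39). Adipocyte markers were higher for 7 of 7 (0.64), though their median was -0.25 on slide 1. The mean level of the endothelial list, which holds 6 of the 10 genes themselves, ranged from 0.08 to 0.35 and from 0.11 to 0.91 in the sham and DMM groups at 1 week, and from -0.20 to 0.09 and from -0.28 to 0.26 at 6 weeks. Mural cell markers, which label the cells that wrap vessels, were lower at 6 weeks for 7 of 11 (median -0.17). The muscle markers Myh1 and Mb, the fibrous tissue markers Dpt and Htra4 and the lymphatic marker Lyve1 did not pass the filter. Other muscle and fibrous or synovial markers did. Acta1, Myl1 and Tnnt3 were above background on 16 of 16 arrays, as were Prg4, Col3a1 and Postn. The measured muscle markers were higher at 6 weeks than at 1 week, with a median of 0.56. The part of these cell types in the results on the 10 genes was not tested.

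**Figure D4:**
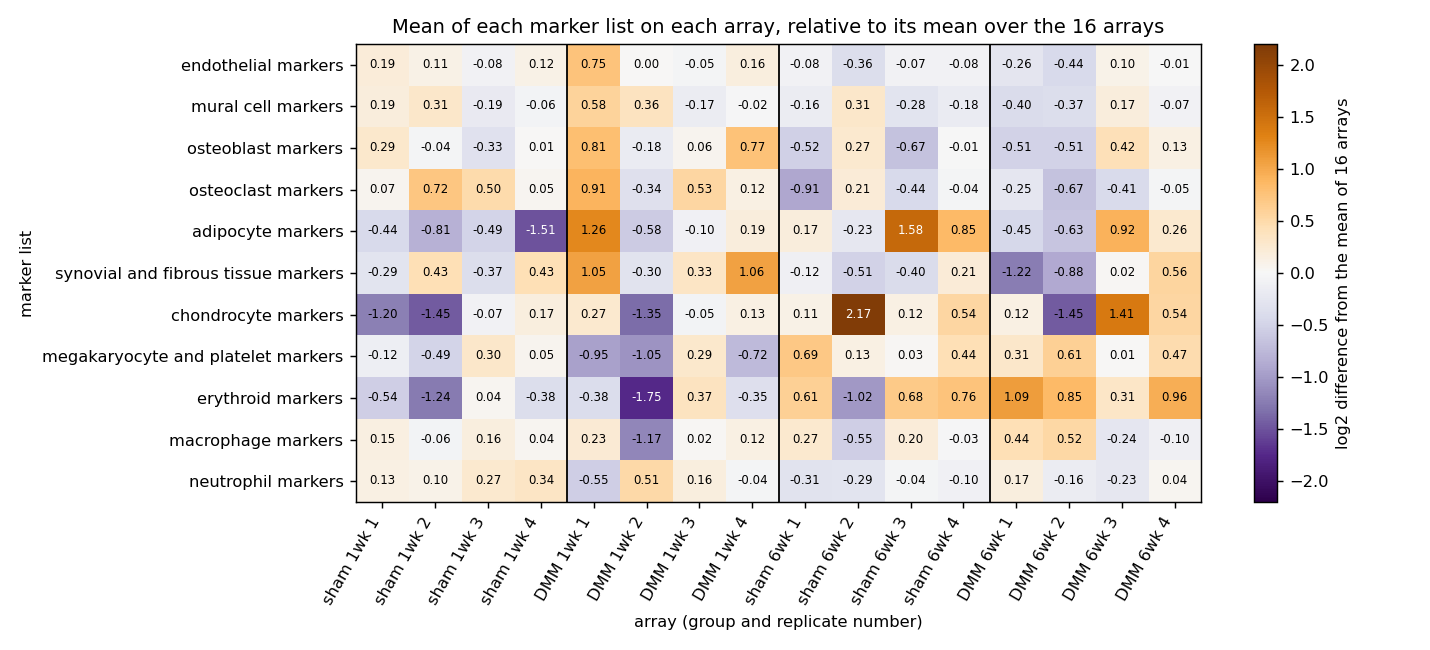
Mean of each marker list on each of the 16 arrays (columns, by group and replicate number), as the log2 difference from the mean of that list over all arrays; orange is higher and purple lower. The column of DMM_1wk replicate 1 is high for endothelial (0.75), adipocyte (1.26) and osteoblast (0.81) markers and low for platelet markers (-0.95), and sham_6wk replicate 2 has the highest chondrocyte value (2.17).

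Over the 16 arrays the endothelial genes followed each other to different degrees. Of the 45 pairs among the 10 genes, 26 had a positive Pearson correlation, with a median of 0.18, and 7 exceeded 0.7. Tek and Emcn correlated at 0.90, Vegfa and Emcn at 0.83, Vegfa and Tek at 0.82, and Cdh5 and Emcn at 0.80. Kdr correlated with Flt1 at 0.77, and each of these receptors with Cdh5 at 0.75. Without the dim array Tek and Emcn gave 0.83 and with group means subtracted 0.86, and the correlation in the authors' values was 0.71. Pecam1 gave lower values, at 0.07 with Emcn, 0.32 with Cdh5 and -0.08 with Tek over all arrays. Without the dim array these became 0.45, 0.48 and 0.28, so that array set much of the separation and the sign with Tek. With group means subtracted its correlations with Kdr and Flt1 were 0.74 and 0.70. Angpt1 correlated negatively with Flt1 (-0.63) and Vegfa (-0.48). All genes share the same RNA on each array, along with its depth and tissue make-up, so these values describe the arrays and were given no p.

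**Figure D5:**
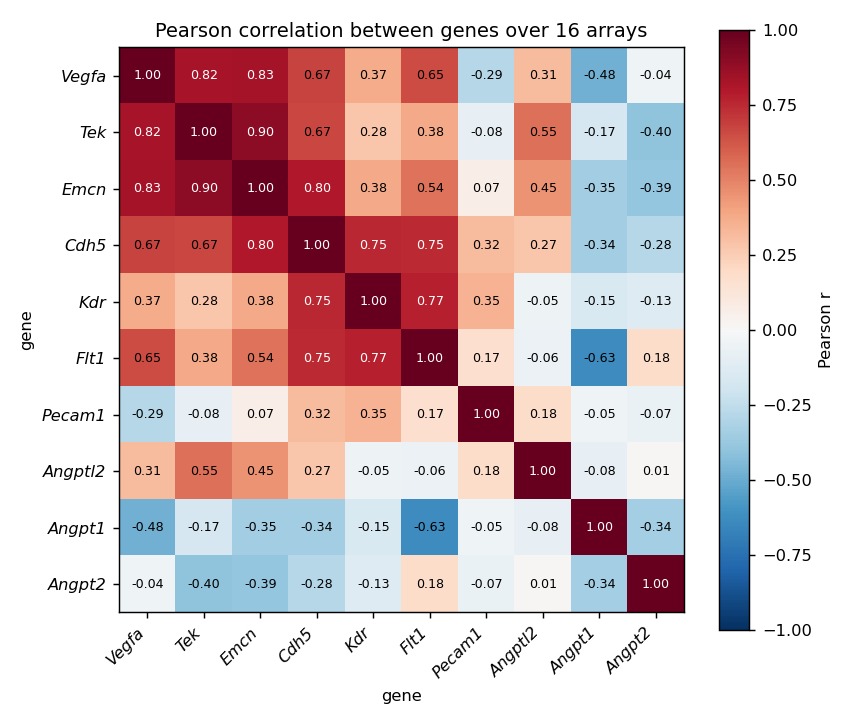
Pearson correlation between the levels of each pair of the 10 genes over 16 arrays, with red for positive and blue for negative values. Vegfa, Tek, Emcn and Cdh5 form a block with values from 0.67 to 0.90, while Angpt1 is at or below -0.05 with all the other genes shown.

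Tek and Emcn had the highest correlation of the 45 pairs, and Kdr and Flt1 are the VEGF receptors, also correlated above 0.7, so the promoters of these pairs are shown. The windows are the 250 bases before the gene start from RefSeq on GRCm38.p6, where 6 of the 10 genes had an entry. Capitals mark GGAA on either strand, the core of sites for ETS factors, a family that includes the endothelial regulators Erg and Fli1. Tek lies at chr4:94739039-94739288 on the plus strand and Emcn at chr3:137340828-137341077 on the plus strand. Kdr lies at chr5:75978456-75978705 on the minus strand and Flt1 at chr5:147726012-147726261 on the minus strand.
Tek: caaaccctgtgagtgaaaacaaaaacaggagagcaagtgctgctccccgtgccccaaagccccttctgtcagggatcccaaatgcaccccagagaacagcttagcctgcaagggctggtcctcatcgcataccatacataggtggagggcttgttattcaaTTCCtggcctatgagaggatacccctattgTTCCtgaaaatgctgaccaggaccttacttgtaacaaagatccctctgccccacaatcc
Emcn: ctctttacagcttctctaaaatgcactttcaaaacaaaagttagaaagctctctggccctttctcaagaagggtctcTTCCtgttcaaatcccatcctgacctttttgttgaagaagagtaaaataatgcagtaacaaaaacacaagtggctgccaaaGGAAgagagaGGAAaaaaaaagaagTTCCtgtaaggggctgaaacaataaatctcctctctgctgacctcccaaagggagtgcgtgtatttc
Kdr: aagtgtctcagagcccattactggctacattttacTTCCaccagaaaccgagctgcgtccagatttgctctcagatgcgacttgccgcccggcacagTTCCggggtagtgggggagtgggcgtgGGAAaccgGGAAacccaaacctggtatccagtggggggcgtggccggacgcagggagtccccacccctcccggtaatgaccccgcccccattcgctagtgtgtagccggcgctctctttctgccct
Flt1: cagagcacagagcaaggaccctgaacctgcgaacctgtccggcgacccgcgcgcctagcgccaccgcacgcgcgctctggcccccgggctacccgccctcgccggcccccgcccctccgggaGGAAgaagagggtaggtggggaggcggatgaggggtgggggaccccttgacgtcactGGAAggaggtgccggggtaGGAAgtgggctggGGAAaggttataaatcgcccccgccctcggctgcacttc

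The Tek window held the letters 2 times, and those of Emcn, Kdr and Flt1 held them 4 times each. They are common: 93.4% of 32851 RefSeq promoter windows of this length hold GGAA on at least one strand, with a median of 3, and 33.4% hold it 4 times or more. The longer form CCGGAA, found in 12.0% of windows, occurred 1 time before Kdr and 0 times before Tek, Emcn and Flt1. ACGTG, the core of the hypoxia response element, occurred 0 times in these 4 windows and in 16.6% of all windows. Such matches describe the letters of the window alone.

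Among 19753 other named genes, those most like each member over the 16 arrays were listed by Pearson correlation. For Tek and Emcn the first was the same gene, Ecscr, an endothelial surface protein (0.94 and 0.95). Emcn was also followed by Fam181b and Fgd5 (0.95 each), the latter an endothelial exchange factor, and Tek by Tmem176a (0.94) and Tmem39a (0.93). Cdh5 was followed by Sparcl1 (0.91), She (0.90) and Vstm4 (0.90). Angpt1 was followed by Arhgap6 (0.93), Rab27b (0.92) and Slc35d3 (0.92), of which Rab27b is known for granule release in platelets and stands in the platelet marker list. Vegfa was followed by Pomgnt1 (0.94), Pomgnt2 (0.93) and Ampd2 (0.93). Kdr was followed by Stard9 (0.93), Pakap (0.92) and Nfib (0.90), and Flt1 by Ppfibp1 (0.98), Airn (0.97) and Bicc1 (0.97). For Angpt2 the genes were V1ra8 (0.95), Dcdc2b (0.94) and Snx17 (0.94), and for Pecam1 Srrm3 (0.92), C130074G19Rik (0.91) and Gm38462 (0.88). Angptl2, near background, reached only 0.82 with Tceal9, 0.79 with Crip2 and 0.78 with Bambi-ps1.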

How the data were processed

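Per the file headers, Agilent Feature Extraction 10.7.3.1 made the scanner files that the authors deposited, with a background-corrected intensity per spot, a call of whether it lies well above background, and mm9 probe positions. The authors' deposited value table of 50815 probes was read as log2 (array medians 7.24 to 7.34), while no source used here tells how it was background-corrected or normalized. Per the submitters' processing notes limma 3.20.9 was used. Per the labels' protocols, 100 ng of RNA was labelled with Cy3.

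Control and outlier spots were left out, spots of a probe averaged, and log2 intensities scaled to the array's 75th percentile. Probes well above background on at least 4 of 16 arrays were kept (43268 of 56605), 342 being left out because outlier marks left them without a value on some array, and the brightest probe stood for a gene. Spots of 1 probe differed within an array by a coefficient of variation between 2.23% and 4.34%, and 65.2% to 79.5% of probes per array were well above background. The number of arrays limits the precision. All 16 arrays entered 1 model of 4 group means in limma 3.58.1 (R 4.3.3), with 2-sided p-values adjusted by Benjamini-Hochberg over 28250 genes in each of 7 comparisons. Older gene names were updated through RefSeq's gene table (Figf became Vegfd). The script was tested on simulated data. The replicate numbers follow record order and pair nothing.

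All 10 genes were named, with 10 fixed partners and, per pathway list, the genes past the threshold or else those with the smallest p-values. The members, lists and comparisons were chosen with earlier results of these data known. One probe of Vegfa is not reported here. Alternatives covered background correction, scaling, filter, choice of probe, flags on spots, slide, the arrays fitted and each array left out. Python 3.11.15 and matplotlib 3.10.9 drew the figures.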

Additional observations from a re-analysis of the deposited data

Results flagged for a closer look

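Of the probes left out of the comparisons, 3 gave a signal well above background on a DMM array that exceeded every sham array of the same time, 2 of them on DMM_1wk replicate 1. A Kdr probe not used in the comparisons, 28.3 kb from the probe that stands for the gene, read -5.52 there and was well above background on that array alone, while the other DMM arrays at 1 week read -7.60 to -6.97 and the highest sham array at 1 week read -7.66. An Angptl2 probe 2.64 kb from the one used read -5.08 there, against -6.81 to -6.22 on the other DMM arrays and at most -6.49 on sham arrays at 1 week. The fourth Flt1 probe read -4.26 on DMM_6wk replicate 2 and -4.72 on DMM_6wk replicate 3, against -6.35 to -6.16 on the other DMM arrays and at most -5.10 on sham arrays at 6 weeks, 2 of which were also above background. The reverse case, a sham array above every DMM array, is not part of this count. Another Kdr probe left out, 24.1 kb from the standing one, was above background on 1 sham array at 1 week and 0 DMM arrays. Its means at 1 week were -5.93 after sham surgery and -6.94 after DMM. Dixon's test, in 40 tests, marked no array of any group as apart from the rest of its group for the 10 genes. With 4 arrays per group the test can mark only an extreme array, so this result does not show that no array stands apart. DMM_1wk replicate 1 was the highest of the 16 arrays for 8 of the 10 genes. The DMM minus sham difference was positive at 1 week and negative at 6 weeks for Vegfa, Kdr, Flt1 and Angpt2. The change of the DMM effect between the times was called for none of the 10 genes, in a comparison that called 0% of all genes.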

How the results depend on the processing

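The 10 genes gave no call in any comparison under the alternatives tried, apart from Flt1 between the times without sham_6wk replicate 2. Over the alternatives, 11 of 289 values changed sign for DMM against sham at 1 week (5 of the 10 genes), 26 of 289 at 6 weeks (9 genes), 20 of 279 for their average (5 genes) and 33 of 279 for the change of the DMM effect (9 genes). Between the times, 5 of 279 values changed sign (4 genes). Some alternatives could not change a value, so these counts understate how far the signs depend on the arrays. Fitting slide as a block or only the groups compared left the estimates as they were. For DMM against sham at either time, so did leaving out an array of the other time. Vegfa, Flt1 and Tek were lower at 6 weeks in 26 of 26 tested alternatives each. The count of genes called between the times averaged over both surgeries, 247, was 410 with normexp, 0 with median scaling, 0 with no filter on dim probes, 451 with probes above background on all arrays, 645 with slide as a block, and 1502 without the array that stands apart. Leaving out 1 array at a time gave 0 to 1502 for that count, 0 to 1 between the times after sham surgery, 0 to 27 after DMM, and 0 to 1 for DMM against sham at 6 weeks. With slide as a block no member was called. No paired analysis was possible because no label ties any sham mouse to a DMM mouse. Angptl2 could not be measured where probes had to be above background on all 16 arrays. With 4 arrays per group, the standard error of a member's DMM effect was 0.16 to 0.55, and true differences well beyond that size could go uncalled. Between the times, Flt1 differed by -0.67 ± 0.20 and was not called (limma adjusted p = 0.103).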
